A study of Macaca mulatta with 8 samples.

Results

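The MHC class II genes described here are 7 of the 26533 features in the deposited matrices. They are CD74, CIITA and every feature whose symbol starts with MAMU-D, which were MAMU-DRA, MAMU-DRB1, MAMU-DMB, MAMU-DOA and MAMU-DOB. The other D-region loci of the macaque carry no such symbol in the files, so the rule does not reach them. CD74 and CIITA are not MHC genes themselves, and their proteins serve the class II pathway. Members were counted in unique molecular identifiers (UMIs), each of which stands for 1 captured RNA molecule, in barcodes with at least 1500 UMIs.

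Retinas of 2 male rhesus macaques were dissociated and profiled by 5′ single-cell RNA sequencing in 8 libraries. NHP1, aged 5 years, received AAV2-CAG-hRPE65, a human RPE65 vector with a ubiquitous promoter, in both eyes, and both of its libraries are labelled as uninjected retina. NHP2, aged 6 years, received AAV8-GRK1-hRPGR and AAV8-GRK1-mScarlet in separate blebs of each eye, both driven by the photoreceptor promoter GRK1. The hRPGR vector was of engineering grade and given at a higher dose, and the mScarlet vector was of laboratory grade. Transgene, dose and preparation therefore cannot be told apart between the blebs. NHP2 gave an uninjected, an hRPGR and an mScarlet library from each eye. All eyes of both animals were given triamcinolone, a corticosteroid, and all left eyes also adalimumab, an antibody against TNF-alpha. Every treated area comes from 1 animal, so n is 2 eyes per area and p-values measure only the spread between these libraries. Eye and adalimumab cannot be told apart, and no retina without vector in the same eye was measured.

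Library totals ranged from 90634306 to 146519011 UMIs, with 9562 to 15080 cells passing the filters and a median of 4606 to 6036 UMIs per cell. Between 1040 and 1468 cell barcodes of each library also occurred as cells in another library, and the number expected by coincidence was not worked out. Transgene UMIs went against 2 of the labels. The uninjected library of the right eye of NHP2 held 9748 UMIs of the hRPGR transgene, against 0 in the left eye. The left library of NHP1 held 32627 UMIs of human RPE65, against 13 in the right. The right mScarlet library also held 1292 UMIs of the hRPGR transgene, against 20 in the left, and the left hRPGR library 53 UMIs of mScarlet. Where leaving out the library labelled uninjected right changed a member's call, the result without it is given. Of the 83192 cells clustered, 17347 lay in 18 clusters that markers did not name, and the other 39 clusters were named from their markers as myeloid-like, B-like and so on.

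Class II molecules hold peptides taken up from outside the cell and show them to CD4+ T cells. MAMU-DRA and MAMU-DRB1 encode the alpha and beta chain of the peptide-binding molecule DR, and CD74 encodes the invariant chain, which guides DR to endosomes and fills its groove until a peptide arrives. MAMU-DMB encodes a chain of DM, which exchanges that filler for peptide, and MAMU-DOA and MAMU-DOB encode the chains of DO, which restrains DM. CIITA is the transactivator that switches the genes on, at promoters whose X and Y boxes bind the RFX and NF-Y complexes. In healthy retina, microglia are the main resident cells with the pathway, while B cells and dendritic cells carry it in blood and lymphoid tissue.

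The 250 bases before the annotated starts of CD74 and MAMU-DOB are printed because MAMU-DOB was the member least like CD74 over cell classes. They are from the Mmul_10 genome, with gene starts of the RefSeq annotation, and each is written on its gene's strand. The capitals mark Y box letters (ATTGG or CCAAT).
CD74, chr6:147922839-147923088, minus strand: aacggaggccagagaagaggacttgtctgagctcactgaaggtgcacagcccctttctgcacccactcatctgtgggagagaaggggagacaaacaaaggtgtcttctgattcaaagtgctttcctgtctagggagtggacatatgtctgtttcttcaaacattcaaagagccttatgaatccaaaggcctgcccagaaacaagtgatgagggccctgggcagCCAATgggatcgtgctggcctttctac
MAMU-DOB, chr4:136715971-136716220, plus strand: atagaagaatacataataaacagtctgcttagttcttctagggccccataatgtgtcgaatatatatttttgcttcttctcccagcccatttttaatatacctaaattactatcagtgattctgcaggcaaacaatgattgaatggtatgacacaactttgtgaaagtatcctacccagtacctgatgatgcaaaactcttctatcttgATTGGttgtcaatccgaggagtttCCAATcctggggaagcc
X-like letters (AACNGNTG) on either strand stood in the windows of 2 of the 7 members and in 6.92% of 20782 protein-coding promoters. Y box letters stood in 6 of the 7 members, all but MAMU-DMB, and in 31.0% of all. These letters were chosen after values were seen, and a match is a description of the sequence.

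Members were concentrated in myeloid-like and B-like cells. Levels are given as CPM, the UMIs of a gene per 1000000 UMIs of a class in a library, with no correction for length, so they are compared between classes and areas and not between genes. Summed over the 7 members, the level in myeloid-like cells was 14731 to 32943 CPM over the 8 libraries. B-like cells were absent from both uninjected areas and from NHP1, and their sum was 29241 and 31588 CPM in the mScarlet libraries with 34 and 62 cells. Plasma-like cells came to 1805, 3459 and 3251 CPM in the 3 libraries with at least 20 of them. T/NK-like cells ranged from 481 to 3369 CPM over the libraries with at least 20 cells, Müller glia-like cells from 22.8 to 182 CPM and rod-like cells from 26.7 to 71.0 CPM. Of all member UMIs in named cells of a library, myeloid-like cells held 69.0% to 91.2%, plasma-like cells at most 10.1%, B-like cells at most 6.15% and Müller glia-like cells at most 2.98%. Rod-like cells held 857 of the 3790 such UMIs in the right NHP1 library, and 82.7% of theirs were MAMU-DOB. The myeloid-like class itself carried all 12 of its markers in every library, at 7811 to 18024 CPM summed.

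**Figure D1:**
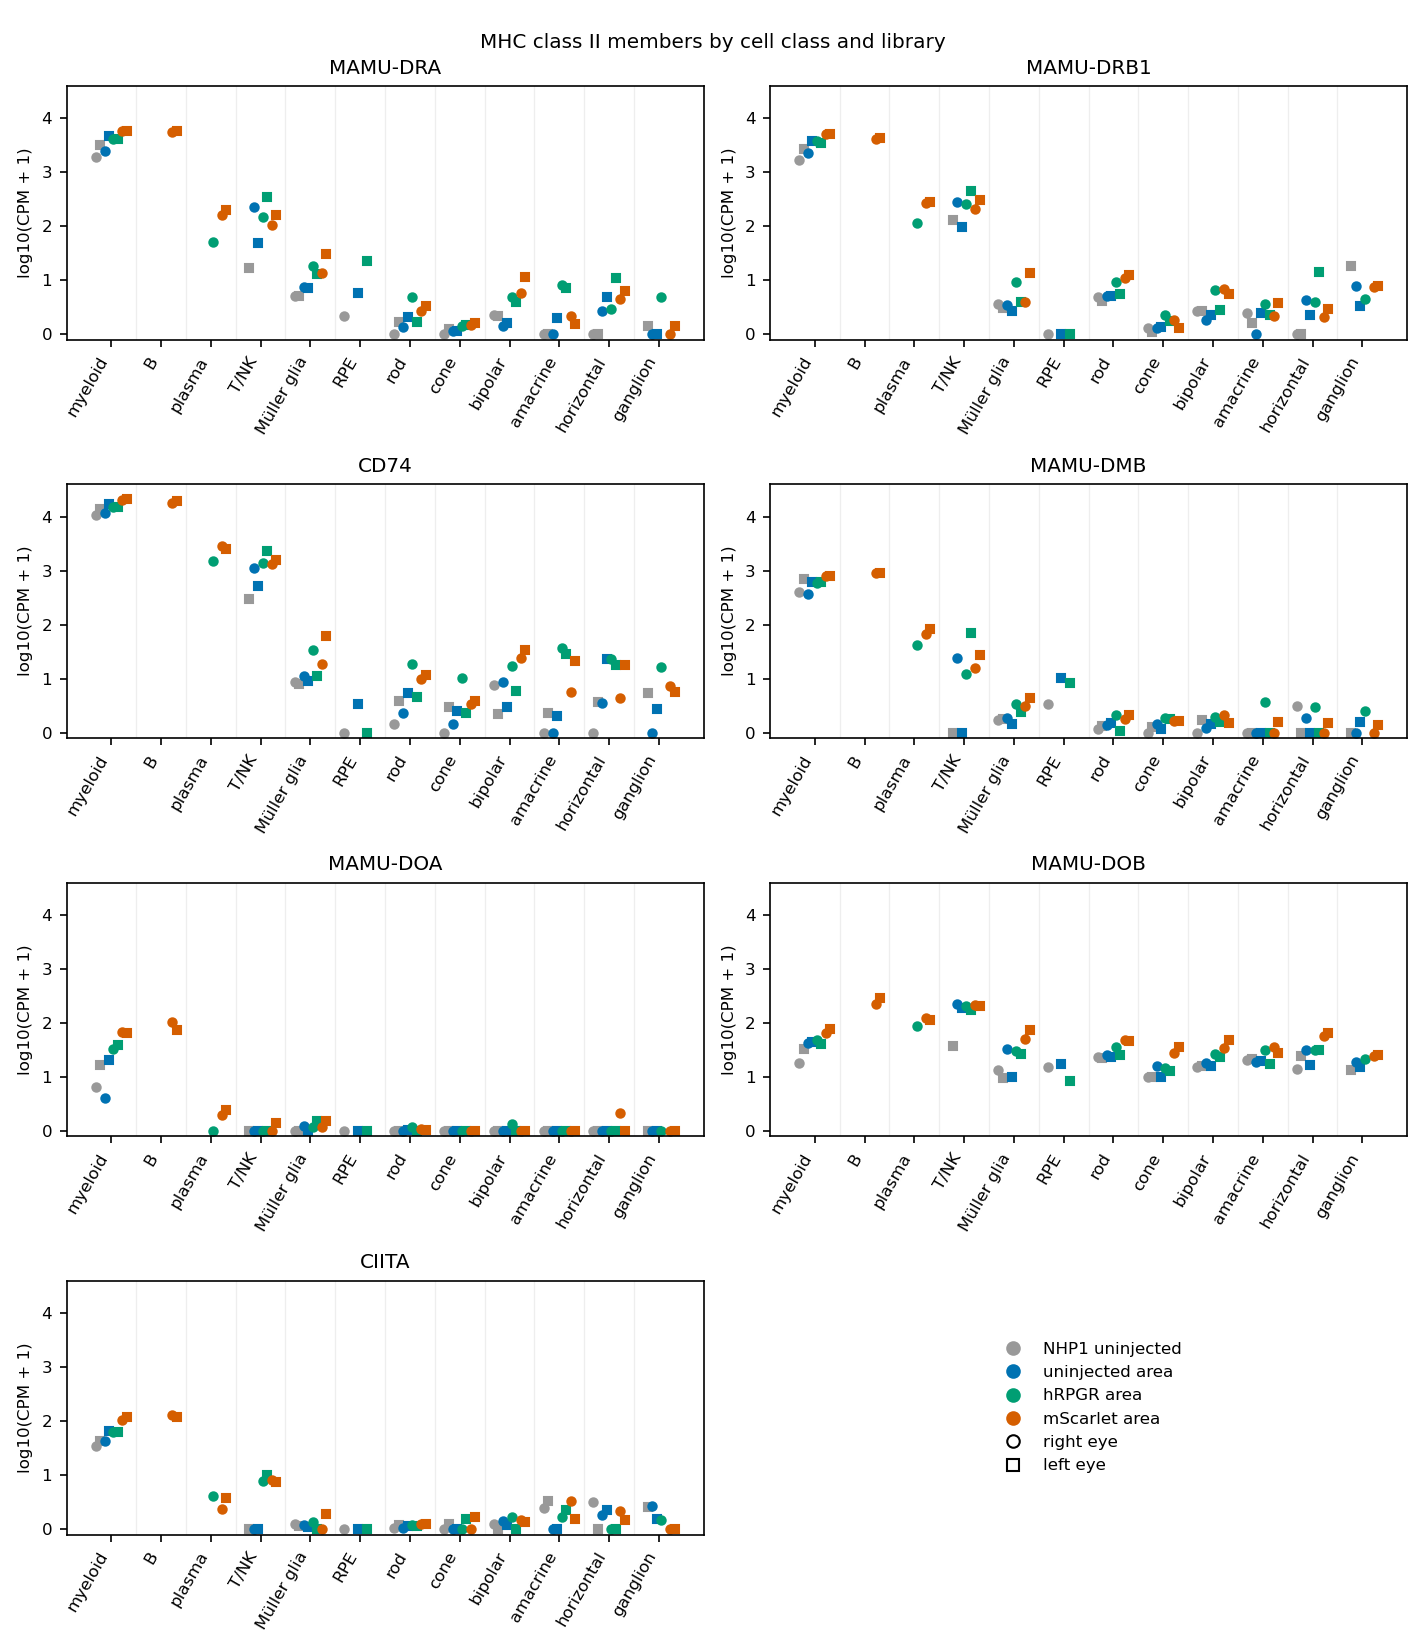
Level of each member by cell class, as log10 of CPM plus 1, with 1 point per library that has at least 20 cells of the class (circles right eye, squares left eye, colours by area). CD74 and the DR chains stand highest in myeloid-like and B-like cells, MAMU-DOA and CIITA are near 0 in glia and neurons, and MAMU-DOB is spread over all classes.

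CD74 and the DR chains were highest in the myeloid-like cells of the mScarlet area. CD74 was at 11621 and 17165 CPM in the right and left uninjected libraries, 14964 and 15294 CPM in the hRPGR libraries and 20083 and 20820 CPM in the mScarlet libraries. The area means were 14393 ± 3920, 15129 ± 233 and 20452 ± 521 CPM (SD, n = 2). Both mScarlet libraries lay above the other 6 libraries, NHP1 included, which held 10624 and 13768 CPM. MAMU-DRA went from 2457 and 4758 CPM in the uninjected libraries to 4105 and 4148 in the hRPGR and 5838 and 5854 in the mScarlet libraries. MAMU-DRB1 was at 2309 and 3841, then 3868 and 3506, then 5233 and 5210 CPM in the same order. For both chains the uninjected eyes differed from each other by more than either bleb's eyes did, the right library being the lower. MAMU-DRB1 belongs to a family of near-identical beta chain loci, and how reads were shared among them was not tested, so its level is uncertain.

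Peptide editing genes and the transactivator were also highest in the mScarlet libraries. MAMU-DMB, the DM chain, was at 361 and 626 CPM in the uninjected, 592 and 619 in the hRPGR and 810 and 796 in the mScarlet libraries. MAMU-DOA, a DO chain, was at 3.02 and 20.0 CPM (2 and 11 UMIs) in the uninjected, 32.3 and 38.6 in the hRPGR and 65.5 and 64.7 CPM in the mScarlet libraries. The pooled counts of MAMU-DOA gave a ratio of 6.07 between the mScarlet and the uninjected area, with an exact 95% counting interval of 3.52 to 11.5. MAMU-DOB, the other DO chain, was at 40.8 and 43.6, 47.4 and 39.4, and 63.8 and 77.6 CPM. CIITA was at 42.3 and 65.5, 61.0 and 61.6, and 102 and 121 CPM. For each of these 4 genes, as for CD74 and the DR chains, both mScarlet libraries were above all other libraries, as for 5.96% of the genes tested in this class. The hRPGR and uninjected ranges overlapped except for MAMU-DOA, and the share of all genes without overlap there was not counted.

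**Figure D2:**
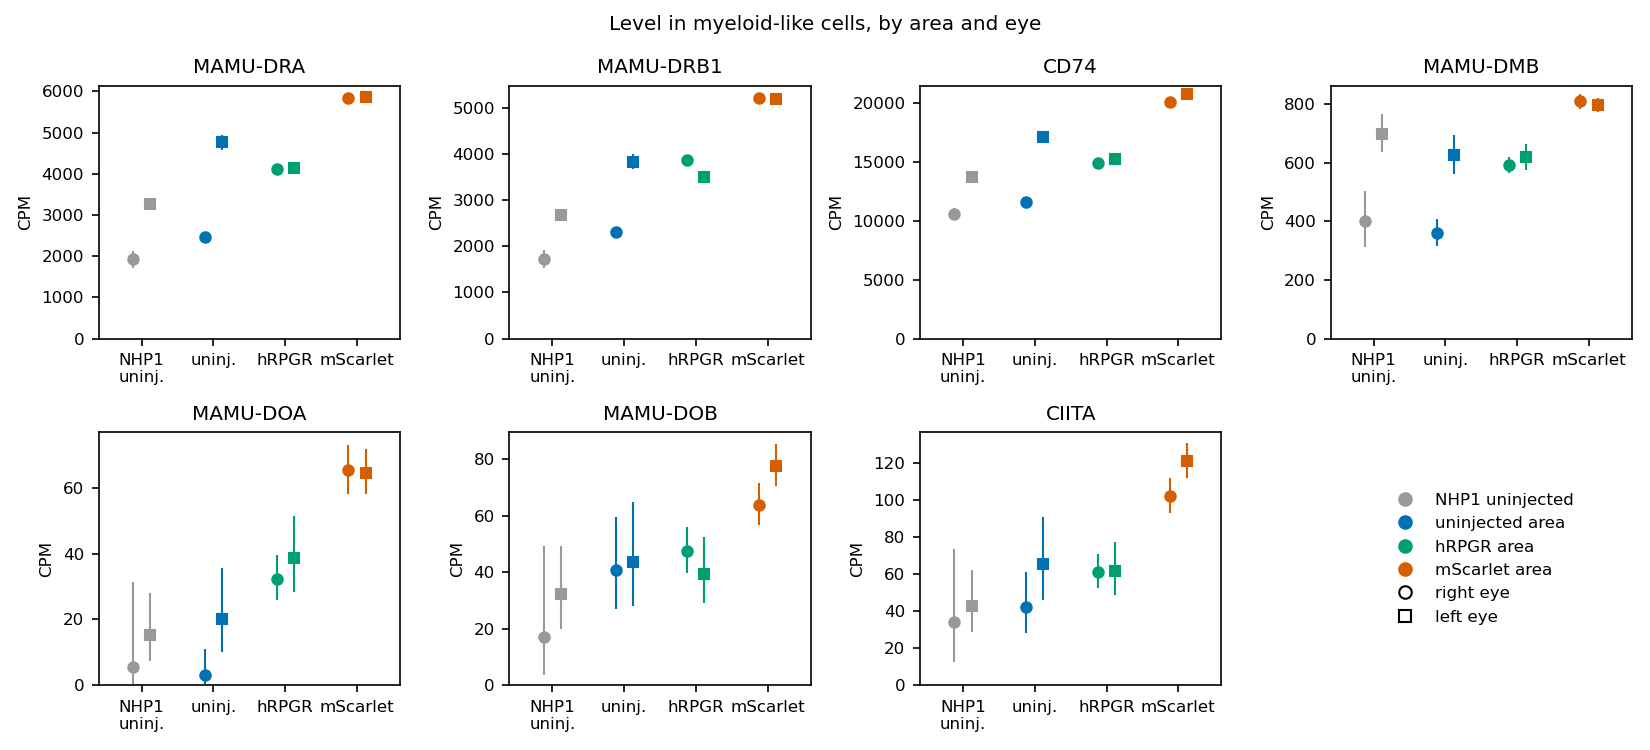
CPM of each member in myeloid-like cells by area (circles right eye, squares left eye), with vertical bars for the exact 95% Poisson interval of the count, which covers counting error only. The 2 mScarlet libraries are the highest for every member, as for 5.96% of all genes tested, and the right uninjected library is low for CD74, the DR chains, MAMU-DMB and MAMU-DOA.

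In the edgeR quasi-likelihood test with Benjamini-Hochberg adjustment over all genes, 2 of the 7 members passed between the mScarlet and uninjected areas in myeloid-like cells, both raised. In that comparison 3.17% of 11213 genes passed, 1.55% raised. MAMU-DOA rose by 2.68 on the log2 scale (SE 0.45, adjusted p = 0.0230) and CIITA by 1.16 (SE 0.24, adjusted p = 0.0399). The other 5 members were not past the threshold, with log2 fold changes of 0.84 for MAMU-DOB (adjusted p = 0.0744), 0.87 for MAMU-DRB1 (0.147), 0.81 for MAMU-DMB (0.148), 0.80 for MAMU-DRA (0.222) and 0.61 for CD74 (0.319). By DESeq2 3 members passed, MAMU-DRB1 as well, with 503 genes in all. The median over the members was 0.84, beside -0.00 over all genes. Without the library labelled uninjected right no member passed, with log2 fold changes of 1.84 for MAMU-DOA and 0.90 for CIITA, and none passed without the left mScarlet library. None passed with high doublet scores kept, where 46 of all genes did, or with expected free RNA subtracted, where 0 did. The losses in these settings are thus not particular to the members. Leaving out either hRPGR library or the right mScarlet library left MAMU-DOA as the member that passed, and without the left uninjected library both passed, MAMU-DOA at 4.49.

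Between the hRPGR and uninjected areas 0 of 7 members passed in myeloid-like cells by edgeR, where 0% of genes passed, with 1 at an unadjusted p under 0.05 and 0 by DESeq2. Between the mScarlet and hRPGR areas 0 of 7 passed, where 0.134% of genes did and 0.0981% were raised, with 3 at an unadjusted p under 0.05 and 1, CIITA, by DESeq2, which called 171 genes. Between left and right eyes 0 of 7 passed, where 0.00892% of genes did, with 0 at an unadjusted p under 0.05 and 0 by DESeq2. These comparisons share libraries and are not independent of each other. Their members' medians were 0.17, 0.64 and 0.27 on the log2 scale.

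Myeloid-like cells fell into a shallow and a deep cluster, with medians of 2350 and 13900 UMIs per cell. The shallow one, 1134 cells, carried 11244 to 32625 CPM of rod markers, and its summed member level was 8697 and 14804 CPM in the uninjected, 12702 and 9837 in the hRPGR and 20522 and 22381 in the mScarlet libraries. The deep one, 809 cells, carried 723 to 3345 CPM of rod markers and came to 21895 and 29285, 28906 and 28501, and 35905 and 35386 CPM in the same order. Within each cluster both mScarlet libraries were above the other 6. The share of all genes in that order was 5.96% over the whole class and was not counted within a cluster. The microglial markers P2RY12 and CX3CR1 were at 740 and 265 and at 965 and 290 CPM in the deep cluster of the uninjected libraries, against 171 and 141 and 164 and 151 in the mScarlet libraries. The hRPGR libraries held 155 and 304 and 224 and 373 CPM, and NHP1 204 and 60.4 and 102 and 121 CPM. In the shallow cluster P2RY12 was at 185 and 133 CPM in the uninjected and 146 and 82.2 in the mScarlet libraries. CX3CR1 was at 158 and 28.6 against 111 and 80.2 CPM there, and for both markers these areas overlapped. The class also went from 99 and 86 cells in the uninjected to 532 and 476 in the mScarlet libraries. The part of the cell mix in the result was not tested. The right uninjected library had the most rod marker RNA of all libraries in the shallow cluster, where 64.6% of its myeloid-like cells lay, and the least in the deep one. Its summed level was the lowest of the NHP2 libraries in both clusters. The part of rod RNA in the area result was not tested.

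Lymphoid cells differed in which members they carried. B-like cells of the mScarlet area held CD74 at 18055 and 19888 CPM, MAMU-DRA at 5576 and 5899, MAMU-DOB at 227 and 287 and CIITA at 130 and 118. Plasma-like cells, which in general shut down class II on leaving the B cell stage, held CD74 at 1505, 2831 and 2570 CPM in the right hRPGR and the right and left mScarlet libraries, with MAMU-DRA at 51.4, 163 and 202. Their CIITA counts were 7, 3 and 20 UMIs. Per 100 CD74 UMIs, MAMU-DRA had 18.1 to 29.1 UMIs in myeloid-like, 29.7 to 30.9 in B-like and 3.42 to 7.87 in plasma-like cells. Plasma-like cells thus held CD74 with less DR by their levels, and no test was made on the few libraries that hold them.

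T/NK-like cells carried CD74 and little MAMU-DRA. CD74 was at 1105 and 521 CPM in the uninjected, 1366 and 2321 in the hRPGR and 1332 and 1599 in the mScarlet libraries, and MAMU-DRA at 230 and 48.5, 146 and 343, and 106 and 161 CPM. The areas overlapped for MAMU-DRA, while for CD74 both uninjected libraries were below all 4 bleb libraries, as for 13.8% of genes tested. By edgeR 0 of 4 members tested passed between mScarlet and uninjected (0.0157% of genes passed), 0 between hRPGR and uninjected (0.0157%) and 0 between mScarlet and hRPGR (0.11%, and 0.0783% raised). At an unadjusted p under 0.05 there were 1, 1 and 0, and by DESeq2 0 in each. Without the library labelled uninjected right, CD74 passed between mScarlet and uninjected. That fit leaves only the left uninjected library, with 37 cells and the lower CD74 level of the pair. The calls over all genes in it are not given here.

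Müller glia, the radial glia of the retina, held far less of each member but MAMU-DOB, which was at 49.9 and 73.5 CPM in the mScarlet libraries, near its level in myeloid-like cells. It was at 32.0 and 8.80 CPM in the uninjected and 29.8 and 25.6 in the hRPGR libraries, below its level in myeloid-like cells in each. In Müller glia-like cells MAMU-DRA was at 6.49 and 6.19 CPM in the uninjected, 17.8 and 12.3 in the hRPGR and 12.7 and 29.6 in the mScarlet libraries, from 31 to 161 UMIs in all cells of a library. CD74 was at 10.3 and 8.15, 32.6 and 9.99, and 17.4 and 61.7 CPM. Both were above the NHP1 libraries, at 4.21 and 4.04 CPM of MAMU-DRA and 7.68 and 7.04 of CD74, in each library of NHP2. The share of all genes in that order was not counted, and animal, age and vector differ together there. For CD74 the exact counting intervals of the left uninjected and right NHP1 libraries overlapped, at 6.41 to 10.2 and 5.22 to 10.9 CPM. Those of MAMU-DRA in the same libraries also overlapped, at 4.69 to 8.02 and 2.45 to 6.74 CPM. MAMU-DRA did not overlap between the uninjected and either bleb area, as for 8.98% of genes tested, and CD74 of the left mScarlet library stood far above the right. The summed level was 39.0 ± 19.2 CPM in the uninjected, 72 ± 27.3 in the hRPGR and 134 ± 68.7 in the mScarlet area (SD, n = 2). CIITA gave 0 to 5 UMIs per library in this class. Different clusters held the class in different libraries, with 653 and 452 of the 1306 left uninjected cells in clusters 16 and 21, where the left mScarlet library had 11 and 3 of its 955. In cluster 12, found in every library, the sums were 56.5 and 95.6 CPM in the uninjected and 86.7 and 148 in the mScarlet libraries, which overlapped, as did CD74 at 31.5 and 64.7 against 39.4 and 79.8. MAMU-DRA there was at 9.68 and 16.9 against 20.3 and 27.1 CPM, with 24.2 and 14.4 in the hRPGR libraries, which overlapped the uninjected ones. Cluster 46, also found in every library, came to 31.0 and 37.7 CPM in the uninjected, 49.3 and 38.6 in the hRPGR and 76.5 and 140 in the mScarlet libraries. These sums rest on 3 to 38 member UMIs in a library. The part of the cluster makeup in the area differences was not tested.

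By edgeR 0 of 5 members tested passed in Müller glia-like cells between mScarlet and uninjected, where 0.348% of genes passed and 0.255% were raised. An unadjusted p under 0.05 was seen for 4 of the 5, and DESeq2 called 1, MAMU-DRA, among 426 genes in all. The log2 fold changes were 1.68 for MAMU-DRA (SE 0.44, adjusted p = 0.152), 2.10 for MAMU-DMB (adjusted p = 0.179), 1.60 for MAMU-DOB (0.240), 2.07 for CD74 (0.261) and 1.88 for MAMU-DRB1 (0.336). MAMU-DRA was at 2.5 and 3.6 times the level expected from free RNA in the uninjected and at 0.62 and 1.01 times in the mScarlet libraries. Subtracting that level left about no MAMU-DRA counts in the mScarlet libraries, so the fitted value there, -5.31, is no measure of the change. In the other comparisons, 0 of 5 passed between hRPGR and uninjected (0.00773% of genes passed), between mScarlet and hRPGR (0.00773%) and between left and right eyes (0%). At an unadjusted p under 0.05 there were 2, 0 and 0, and by DESeq2 0 in each. Without the library labelled uninjected right, MAMU-DOB passed, at 2.76 on the log2 scale. That fit leaves only the left uninjected library, the lower of the pair for MAMU-DOB at 8.80 CPM. The test of whether the mScarlet effect differed between Müller glia-like and myeloid-like cells called 0 of 7 members (1% of 14177 genes passed), with 0 at an unadjusted p under 0.05. MAMU-DOA and CIITA entered it through the myeloid-like sums, with 0 to 3 and 0 to 5 UMIs in Müller glia-like cells. Their lack of a call, here and for the hRPGR effect, is therefore no result. The same test of the hRPGR effect called 0 of 7 (0.0282% of genes passed), with 1 at an unadjusted p under 0.05, and DESeq2 called 0 in both. Without the library labelled uninjected right, MAMU-DOB passed in the first, at 1.90.

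The summed level of the listed myeloid markers in these cells was also highest in the mScarlet area. Which markers carried it was not examined, and how much of it is myeloid RNA was not tested. The 12 myeloid markers summed to 576 and 447 CPM in Müller glia-like cells of the uninjected, 729 and 780 of the hRPGR and 1128 and 1075 of the mScarlet libraries, with 0 to 2 of the 12 at 0 in a library of NHP2. Member RNA in barcodes with 100 to 1000 UMIs, taken as free RNA, summed to 87.5 and 95.3 CPM in the uninjected, 410 and 213 in the hRPGR and 351 and 749 CPM in the mScarlet libraries. In free RNA, more expressing cells and more RNA per cell cannot be told apart. The CD74 level expected in Müller glia-like cells from free RNA, by the level of other classes' markers, was above the measured one in all 6 NHP2 libraries, which were at 0.219 to 0.958 of it, and below it in NHP1, at 5.14 and 2.05 times. Rod-like cells were at 0.0422 to 0.142 of their expected CD74 in NHP2 and at 0.0879 and 0.238 in NHP1. The expectation is thus far above the measured level there and is not exact. Among Müller glia-like cells with no UMI of 7 myeloid and leukocyte genes, CD74 was at 1.71 and 3.54 CPM in the uninjected, 10.8 and 4.46 in the hRPGR and 11.3 and 22.9 in the mScarlet libraries. MAMU-DRA in the same cells was at 4.92 and 5.53, 9.22 and 9.27, and 9.72 and 15.1 CPM. For both genes both mScarlet libraries stood above both uninjected ones, and how many of all genes do so in these cells was not counted. The log2 fold change was 2.54 for CD74 (edgeR, adjusted p = 0.126) and 1.17 for MAMU-DRA (0.132), neither past the threshold.

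**Figure D3:**
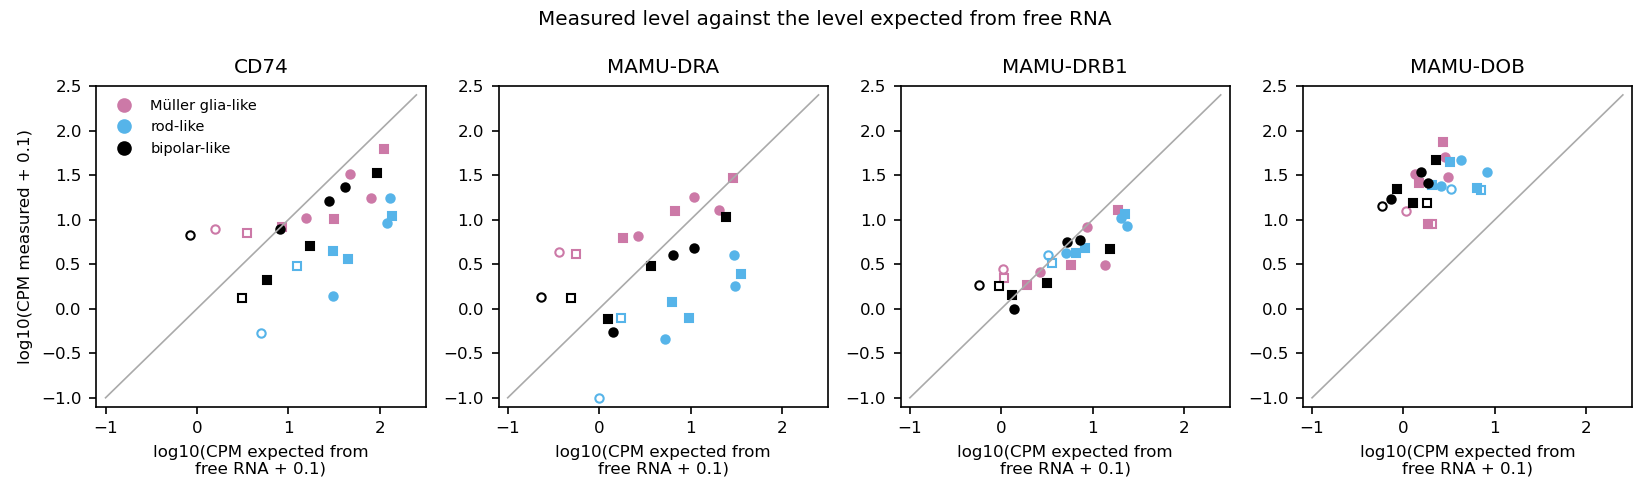
Measured level against the level expected from free RNA, both as log10 of CPM plus 0.1, in Müller glia-like, rod-like and bipolar-like cells of each library (circles right eye, squares left eye, open symbols NHP1, grey line equality). CD74 lies below the line in all 3 classes of NHP2, MAMU-DRA on or above it in most Müller glia-like sums, and MAMU-DOB above it throughout.

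The ratio of members differed between glia and free RNA. Per 100 CD74 UMIs, free RNA held 13.2 to 26.2 MAMU-DRA UMIs over the 8 libraries and rod-like cells 0 to 27.1. Müller glia-like cells held 47.9 to 123, above free RNA of every library. Bipolar-like cells held 5.71 to 100, from 2 to 60 MAMU-DRA UMIs in a library. What sets these ratios was not tested. MAMU-DRB1 per 100 MAMU-DRA UMIs was 23.9 to 64.7 in Müller glia-like cells, 80.7 to 94.2 in myeloid-like cells and 63.5 to 352 in free RNA.

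Shares of cells were small outside the immune classes. With each cell thinned to 1500 UMIs by a single random draw, CD74 was seen in 91.9% to 99.1% of myeloid-like cells. In Müller glia-like cells the share was 1.14% and 0.919% in the uninjected, 3.64% and 1.06% in the hRPGR and 2.85% and 3.66% in the mScarlet libraries. The exact 95% intervals ran from 0.493% to 2.23% in the right uninjected and from 2.57% to 5.06% in the left mScarlet library. Rod-like cells, which should lack the gene, showed 0.254% and 0.635%, 3.22% and 0.591%, and 1.57% and 1.76%. Median depths were 3987 to 5946 UMIs in Müller glia-like and 5097 to 6287 in rod-like cells. In the right hRPGR library the rod-like share lay within the exact 95% interval of the Müller glia-like one, 2.47% to 5.16%. CD74 and MAMU-DRA together were seen in 0.0906% to 1.57% of Müller glia-like and in 0% to 0.0885% of rod-like cells over the 8 libraries. In the same thinned cells, at most 7 Müller glia-like cells of a library had 5 or more member UMIs, and in the left mScarlet library 85.7% of those also had a UMI of a myeloid gene.

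Retinal pigment epithelium was thinly sampled, since the retina was lifted off it before dissociation. With cells thinned to 1500 UMIs, CD74 was seen in 0 of 73 RPE-like cells of the right NHP1 library and in 0 of 60 of the left uninjected library. The exact upper bounds of 4.93% and 5.96% limit the share of cells with a UMI, not of cells that express the gene, and unthinned the left uninjected library held 1 CD74 UMI. Over all 189 RPE-like cells, MAMU-DRA gave at most 3 UMIs in a library and CIITA 0. The 60 cells of the left uninjected library carried MAMU-DMB at 9.5 CPM from 4 UMIs. No area effect could be tested in this class.

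Among neurons, MAMU-DOB and MAMU-DRA were the members that passed. In bipolar-like cells, which relay photoreceptor signals, MAMU-DOB was at 16.8 and 15.1 CPM in the uninjected, 25.5 and 21.9 in the hRPGR and 33.9 and 46.3 in the mScarlet libraries. The 3 areas did not overlap, as for 2.66% of genes tested, and NHP1 held 14.1 and 15.2 CPM. By edgeR 2 of 4 members tested passed between mScarlet and uninjected, both raised, where 0.762% of genes passed and 0.643% were raised. MAMU-DOB rose by 1.33 on the log2 scale (SE 0.18, adjusted p = 0.0056). MAMU-DRA also passed (adjusted p = 0.0136), from 2 and 3 UMIs in the uninjected to 21 and 60 in the mScarlet libraries, a ratio of pooled levels of 14.6 with an exact 95% counting interval of 6.02 to 46.3. CD74 was at 7.76 and 1.97, 16 and 4.98, and 23.3 and 33.3 CPM and missed the threshold at 2.54 on the log2 scale (SE 0.57, adjusted p = 0.0546).

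The bipolar-like calls leaned on single libraries. None passed without the left uninjected or the left mScarlet library, and MAMU-DRA did not pass without the library labelled uninjected right, where CD74 did. With expected free RNA subtracted 1 member passed, MAMU-DOB, and the calls over all genes in that fit are not given here. More members passed without either hRPGR library, CD74 among them, and the calls over all genes in those fits are not given here. Measured MAMU-DRA was 0.337 to 0.822 of the level expected from free RNA over the 6 NHP2 libraries, and MAMU-DOB 12.9 to 29.5 of its own. Myeloid markers in bipolar-like cells summed to 10.2 and 9.65 CPM in the uninjected and 23.7 and 32.9 in the mScarlet libraries, and their part in the MAMU-DRA result was not tested. Between hRPGR and uninjected 0 of 4 passed by edgeR (0.0318% of genes passed) and between mScarlet and hRPGR 0 of 4 (0.191%, and 0.159% raised), with 3 at an unadjusted p under 0.05 in each and 0 by DESeq2.

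In cone-like cells MAMU-DOB was at 15 and 9.03 CPM in the uninjected, 13.4 and 12.1 in the hRPGR and 27.1 and 35.5 in the mScarlet libraries. It was 1 of 2 members tested to pass between mScarlet and uninjected, at 1.23 on the log2 scale (edgeR, SE 0.24, adjusted p = 0.0424), where 1.8% of genes passed and 1.22% were raised. With eye as a block it did not pass (adjusted p = 0.0931), nor without the left uninjected or either mScarlet library. In rod-like cells MAMU-DOB was at 24.0 and 22.4, 34.2 and 24.3, and 46.4 and 44.8 CPM, and MAMU-DRB1 at 4.16 and 4.07, 8.40 and 4.70, and 10.3 and 11.6 CPM. Both mScarlet libraries were above the others for these 2 genes, as for 12.7% of genes tested. By edgeR 0 of 5 members passed there (0.369% of genes passed), with a log2 fold change of 0.93 for MAMU-DOB (adjusted p = 0.0738) and 1.37 for MAMU-DRB1 (0.0866). In that comparison 3 members had an unadjusted p under 0.05, and MAMU-DOB and MAMU-DRB1 passed by DESeq2, which called 968 of 14617 genes there. Without the library labelled uninjected right MAMU-DOB and MAMU-DRB1 passed, and members also passed without either hRPGR library. The calls over all genes in these fits are not given here.

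The other neuronal comparisons called no member by edgeR. Rod-like cells gave 0 of 5 between hRPGR and uninjected, between mScarlet and hRPGR and between eyes, where 0% of genes passed in each, with 1, 2 and 0 members at an unadjusted p under 0.05, and CD74 passed between eyes without the left hRPGR library. Cone-like cells gave 0 of 2 between hRPGR and uninjected (0.0261% of genes) and between mScarlet and hRPGR (0.253%, and 0.218% raised), with 1 and 1, and CD74 passed in the first without the left hRPGR library. Amacrine-like cells gave 0 of 2 in the 3 area comparisons (0.0984%, 0% and 0%), with 1 in each, and CD74 passed in both comparisons with uninjected without the right mScarlet library. Horizontal-like cells gave 0 of 2 (0.294% for mScarlet and 0.116% for hRPGR against uninjected, 0.0105% between blebs), with 1, 0 and 1, and without the library labelled uninjected right MAMU-DOB passed between mScarlet and uninjected. DESeq2 called 0 in each of these. Ganglion-like cells were too few in 1 library for a test, and MAMU-DOB was at 12.6 to 24.0 CPM in them.

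**Figure D4:**
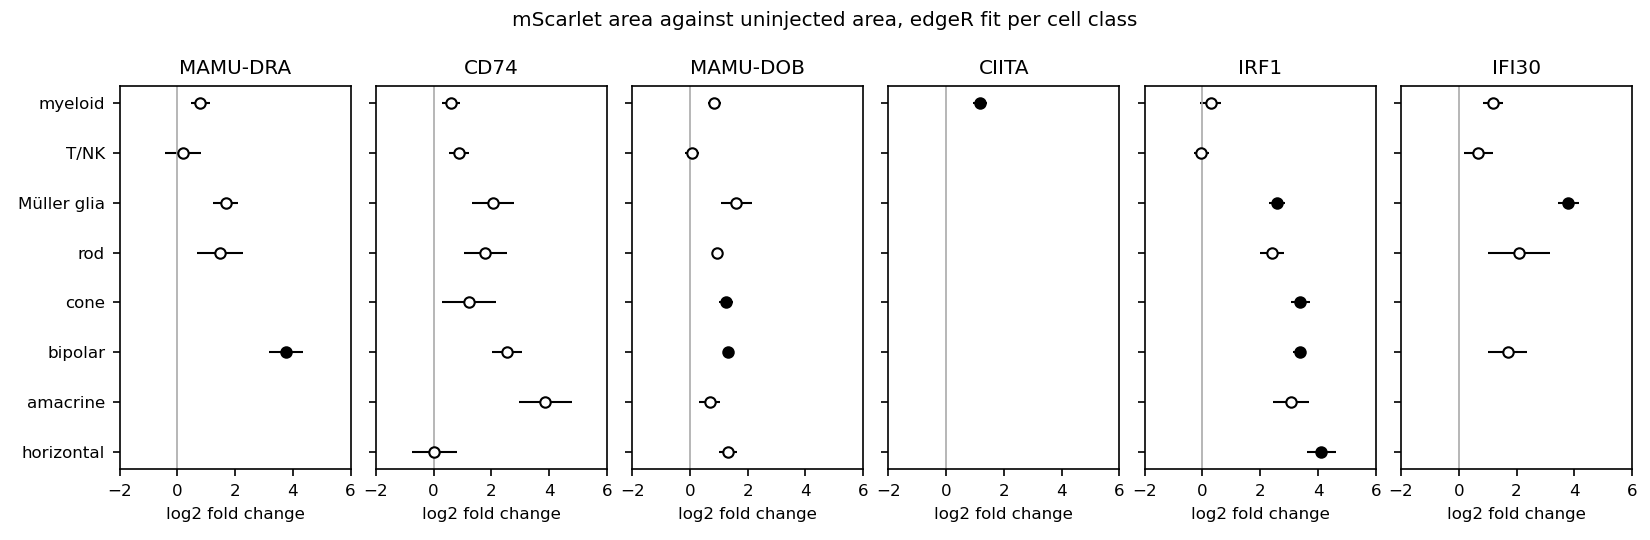
Log2 fold change between the mScarlet and uninjected areas of NHP2 for 4 members and for IRF1 and IFI30, by cell class, with bars of 1 SE from the edgeR fit and filled points where the adjusted p was under 0.05. CIITA was tested in myeloid-like cells alone, and MAMU-DOB is above 0 by more than its SE in every class shown but T/NK-like cells, where it is 0.07.

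MAMU-DOB was the member least like CD74 over classes. Its share of all member UMIs was at most 0.24% in myeloid-like and 0.91% in B-like cells, and 32.7% to 61.0% in Müller glia-like, 52.1% to 82.7% in rod-like and 52.5% to 96.6% in cone-like cells. Its measured level was 3.07 to 14.2 times that expected from free RNA in rod-like and 4.46 to 28.4 times in Müller glia-like cells. Over 77 sums of a class in a library, with at least 20 cells each, Pearson's r with CD74 in log2(CPM + 1) was 0.961 for MAMU-DRB1, 0.958 for MAMU-DRA, 0.898 for MAMU-DMB, 0.836 for CIITA, 0.755 for MAMU-DOA and 0.715 for MAMU-DOB. The sums share libraries, animals and depth, so these are descriptions. Outside the members the features most like CD74 were RNASE6 (0.963), PYCARD (0.952), INPP5D (0.946), LAIR1 (0.942) and STX11 (0.941). In the same measure, chosen after values were seen, the features most like MAMU-DOB were PSMB8 (0.857), PSME1 (0.855), CD38 (0.852), PSMB9 (0.838) and KIAA0040 (0.837), and CD74 stood at rank 224.

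PSMB8 and PSMB9 encode immunoproteasome subunits and lie near MAMU-DOB. In the RefSeq annotation of Mmul_10, MAMU-DOB spans chr4:136716221-136720516 on the plus strand, with TAP2 ending 17425 bases before it, PSMB8 30945 bases before it on the same strand and PSMB9 42494 bases before it on the other strand. In rod-like cells PSMB8 was at 19.5 and 15.4 CPM in the uninjected, 81.2 and 35.5 in the hRPGR and 232 and 228 in the mScarlet libraries, a wider spread than that of MAMU-DOB. No feature of the files carries the symbol TAP2, and whether reads of a neighbour reached the MAMU-DOB count was not tested.

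**Figure D5:**
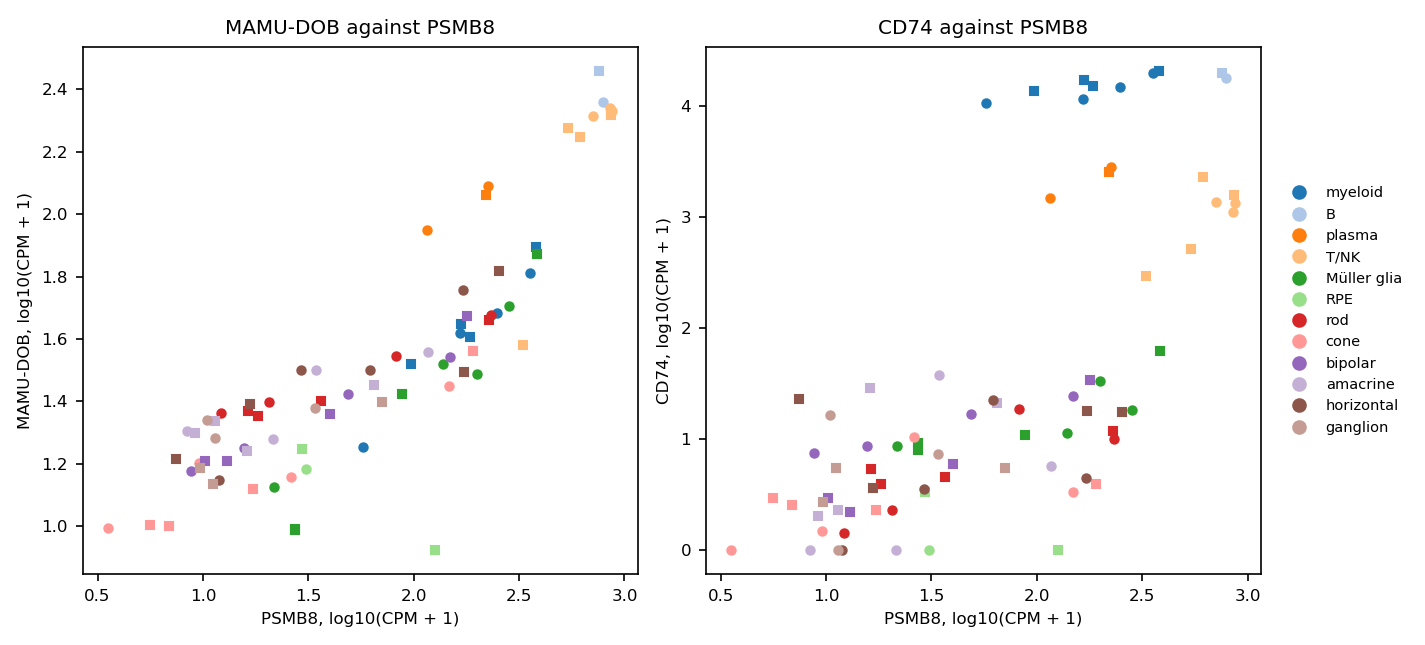
MAMU-DOB and CD74 against PSMB8, as log10 of CPM plus 1, over the 77 sums of a class in a library (circles right eye, squares left eye, colours by class). Over the 77 sums MAMU-DOB had an r of 0.857 with PSMB8 on the log2 scale, and r within classes was not computed. PSMB8 was picked as the feature most like MAMU-DOB in these same sums. CD74 splits into immune and other classes at like PSMB8 levels.

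Other genes of the pathway came from 3 lists. Of 14 class II regulators tested in myeloid-like cells, 1 rose and 0 fell between mScarlet and uninjected, where 3.17% of all genes passed and 1.55% were raised, with a list median of 0.31 on the log2 scale. It was JAK2, a kinase of the interferon-gamma receptor, at 115 and 176 CPM in the uninjected and 314 and 276 in the mScarlet libraries (log2 fold change 1.13, adjusted p = 0.0474 by edgeR). Of 9 endosomal processing genes 1 rose and 0 fell, with a median of 1.11, and it was CD63, a late endosome membrane protein (1.24, adjusted p = 0.0488). With eye as a block the adjusted p was 0.0519 for JAK2 and 0.0567 for CD63. JAK2 did not pass without any 1 library except the left uninjected, nor CD63 without either uninjected or either mScarlet library. With expected free RNA subtracted neither passed, and 0 genes passed in all. Of 6 costimulation genes and class II ligands 0 passed, with 2 at an unadjusted p under 0.05.

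In Müller glia-like cells 2 of 14 regulators rose, IRF1 and JAK2, and 0 fell, where 0.348% of all genes passed and 0.255% were raised, with a list median of 0.02. IRF1, an interferon-induced activator of CIITA, was at 22.8 and 16.6 CPM in the uninjected, 37.7 and 41.2 in the hRPGR and 93.6 and 153 in the mScarlet libraries (log2 fold change 2.59, adjusted p = 0.0341 by edgeR). JAK2 went from 43.8 and 42.2 to 84.1 and 76.2 CPM (0.83, adjusted p = 0.0499). Of 9 processing genes 1 rose and 0 fell, with a median of 0.24, and it was IFI30, a lysosomal thiol reductase that unfolds antigens. IFI30 was at 3.98 and 2.06 CPM in the uninjected, 12.1 and 12.4 in the hRPGR and 31.6 and 50.7 in the mScarlet libraries (3.80, adjusted p = 0.0298). The areas did not overlap for IRF1 or IFI30, as for 3.96% of genes tested. With eye as a block the adjusted p was 0.0627 for both and 0.0812 for JAK2. IRF1 and IFI30 did not pass without the left uninjected, either hRPGR or the left mScarlet library, and JAK2 did not pass without any 1 library except the one labelled uninjected right. None of the 3 passed with expected free RNA subtracted, where 2 genes passed in all. The 12 listed myeloid markers summed to 576 and 447 CPM in the uninjected and 1128 and 1075 in the mScarlet libraries in these cells. How much of that sum is myeloid RNA was not tested.

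IRF1 also rose between mScarlet and uninjected in bipolar-like cells (3.36 on the log2 scale, adjusted p = 7.6e-05 by edgeR), cone-like cells (3.39, adjusted p = 0.00221) and horizontal-like cells (4.12, adjusted p = 0.00815). In bipolar-like cells it was at 3.99 and 6.80, 20.9 and 16, and 49.0 and 61.9 CPM, with no overlap between areas, as for 2.66% of genes tested. Of all genes, 0.762% passed in bipolar-like, 1.8% in cone-like and 0.294% in horizontal-like cells. Those raised were 0.643%, 1.22% and 0.221% in the same order. The horizontal-like call was lost without the left mScarlet library. In T/NK-like cells LAG3, a class II binding receptor of T cells, was at 48.7 and 36.1 CPM in the hRPGR and 140 and 181 in the mScarlet libraries. It rose by 1.90 on the log2 scale (edgeR, adjusted p = 0.0354), where 0.11% of genes passed and 0.0783% were raised. With eye as a block its adjusted p was 0.0773, and it did not pass without any 1 of those 4 libraries.

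A pair of features with no symbol in the files is named MAMU-DPA and Mamu-DPA1 by RefSeq and is not counted among the members. In myeloid-like cells MAMU-DPA was at 515 and 780 CPM in the uninjected, 775 and 754 in the hRPGR and 1167 and 1084 in the mScarlet libraries. Cells in unnamed clusters had low member levels for the most part, with sums of 20.0 to 215 CPM in 16 of the 18 clusters. The exceptions were cluster 50, with 217 cells, the immunoglobulin genes IGKC and JCHAIN among its leading 10 and 2570 CPM, and cluster 53, with 171 cells, the mural markers RGS5 and ACTA2 and 634 CPM.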

How the data were processed

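Per the labels and the study's methods, the authors counted reads with Cell Ranger 8.0.1 on Mmul_10 with the transgenes added, and deposited raw UMI counts per feature and barcode. From these counts, barcodes were taken as cells from 1500 UMIs and 300 genes upward, with a mitochondrial share of up to 20%, and barcodes with the highest doublet scores were removed, at 0.8% per 1000 cells. Cells were clustered with scanpy 1.11.5 (3000 variable genes, 40 components, 15 neighbours, Leiden resolution 2). Of the variable genes 4 were members, and these were left out before clustering. Class levels are descriptions.

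UMIs were summed per class and library, with at least 20 cells in each NHP2 library, and fitted with edgeR 4.0.16 (TMM, quasi-likelihood, Benjamini-Hochberg over all genes tested, threshold 0.05). The fit held area and the 6 NHP2 libraries. The SE is the log2 fold change divided by the square root of F. DESeq2 1.42.0 was an alternative, beside another normalization, no filter on low counts, other depths, doublets kept, free RNA subtracted, eye as a block and each library left out. Fits without a library leave an area with only its right or left eye. Their calls over all genes are not given here, so members gained or lost in them are descriptions. Intervals are exact at 95% and cover counting error only. On simulated counts with 200 genes changed 4-fold, the mScarlet comparison recovered 97.5% in Müller glia-like (12776 genes) and 97% in myeloid-like cells (10952 genes). Of the calls 5.8% and 3.48% were of unchanged genes. The changed genes were drawn only from those with high mean counts, above MAMU-DMB and MAMU-DRB1 in Müller glia-like cells. Recovery at lower counts was not measured.

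Replicate numbers are the right and left eye of 1 animal and so pair libraries. Correlations of same-numbered deviations were -0.43 to 0.23. Members, gene lists and tests were chosen with earlier results of these data known, and the likeness to MAMU-DOB, its neighbours and the promoter letters after values were seen. All members were named, with the listed genes that passed and the 5 features most like CD74. Of the features 16678 carried a symbol in the files, 564 were named from RefSeq and 9291 kept an identifier. Promoter sequences of the other members are not reported here.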

Additional observations from a re-analysis of the deposited data

Results flagged for a closer look

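Between mScarlet and uninjected, 2 listed genes differed in their area effect between Müller glia-like and myeloid-like cells by the interaction term of the edgeR fit. For IRF1 the effect was larger in Müller glia-like cells by 2.21 on the log2 scale (SE 0.41, adjusted p = 0.0245), and for IFI30 by 2.54 (SE 0.49, adjusted p = 0.0274). In myeloid-like cells IRF1 was at 87.6 and 224 CPM in the uninjected and 147 and 204 in the mScarlet libraries, which overlapped. The IRF1 term did not pass without the left uninjected library, at 1.23, nor without either hRPGR library. The IFI30 term did not pass without the left uninjected library, at 1.56, nor without the right hRPGR or the left mScarlet library. Neither passed with expected free RNA subtracted, and the calls over all genes in that fit are not given here.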

How the results depend on the processing

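Counts below are of members called. With DESeq2 they were 3 for mScarlet against uninjected and 1 for mScarlet against hRPGR in myeloid-like cells, and for mScarlet against uninjected 1 in Müller glia-like and 2 in rod-like cells. At 3000 UMIs per cell the myeloid-like mScarlet count was 1. T/NK-like cells were not run there, with too few cells. With free RNA subtracted it was 0 in myeloid-like and 1 in bipolar-like cells, and MAMU-DRA in Müller glia-like cells came to -5.31, against an mScarlet area left with about no counts. With doublets kept it was 0 and 4. With no filter on low counts, the counts for mScarlet against uninjected, hRPGR against uninjected and mScarlet against hRPGR were 6, 1 and 3 in myeloid-like cells (1283, 221 and 709 of 18748 genes) and 4, 1 and 2 in bipolar-like cells (535, 106 and 266 of 20376). The same setting gave 1 for mScarlet and 1 for hRPGR against uninjected in T/NK-like (434 and 53 of 16247 genes) and amacrine-like cells (119 and 25 of 19210). It gave 2 for mScarlet against uninjected in rod-like (668 of 22251) and 1 in horizontal-like cells (576 of 17377), and 1 in cone-like cells for hRPGR against uninjected and mScarlet against hRPGR (318 and 367 of 19079). The replicate block took the cone-like count to 0 and changed no other member call. Leaving out each library gave 0 to 2 for mScarlet in myeloid-like and rod-like cells, 0 to 4 in bipolar-like cells and 0 to 1 in T/NK-like, Müller glia-like, cone-like, amacrine-like and horizontal-like cells, for hRPGR in cone-like and amacrine-like cells, for eyes in rod-like cells and for the interaction.

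Shares of cells with CD74 rose with depth. Without thinning they were 2.07% in the left uninjected, 8.01% and 2.41% in the hRPGR and 5.02% and 7.12% in the mScarlet libraries for Müller glia-like cells. For rod-like cells they were 0.196% and 0.978% in NHP1, 0.729% and 1.81% in the uninjected, 8.25% and 1.33% in the hRPGR and 4.36% and 4.82% in the mScarlet libraries. Thinned to 3000 UMIs they were 5.35% and 2.24% in the hRPGR and 5.59% in the left mScarlet library for Müller glia-like cells, and for rod-like cells 0.584% in left NHP1, 0.477% and 0.946%, 4.72% and 0.976%, and 2.30% and 2.87%. With doublets kept they were 0% in right NHP1 Müller glia-like cells, and 0.109% and 0.316% in rod-like cells of the right uninjected and left hRPGR libraries. Thinning was drawn anew in this setting, so these shares also differ from the main ones by the draw. The spread between draws was not measured. Over all genes, mScarlet against uninjected called 355 in myeloid-like cells (0 with free RNA subtracted, 46 with doublets kept, 208 at 3000 UMIs, 1283 unfiltered), 45 in Müller glia-like cells (5 with the block, 2 with free RNA subtracted, 80 at 3000 UMIs, 93 with doublets kept, 178 unfiltered, 426 by DESeq2), 54 in rod-like cells (34 with the block, 0 with free RNA subtracted, 668 unfiltered, 968 by DESeq2) and 207 in cone-like cells (68 with the block, 1069 unfiltered). The cause of these changes was not tested. With 2 eyes of 1 animal per area, no result extends beyond these libraries, and in glia and neurons the counts limit every member but MAMU-DOB.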
